A study of Caenorhabditis elegans with 39 samples.

Results

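The genes described here make branched-chain fatty acids in the nematode Caenorhabditis elegans: elo-5 (F41H10.7), elo-6 (F41H10.8), let-767 (C56G2.6) and acs-1 (F46E10.1). They were picked by sequence name from the count files and are 4 of the 44968 features counted. Messenger RNA was sequenced in 39 libraries of first-stage (L1) larvae of the wild-type strain N2. They were F3 descendants of animals cultured under control conditions or kept as dauers, an alternative arrested larval form, for a short or a long term; these are called control, short-term and long-term descendants below. In liquid culture the F3 larvae were collected after 18 h with food or 24 h without it, and the series compares these states and ancestries 3 generations on. There were 4 fed and 12 starved control libraries, 4 fed and 9 starved ones from short-term descendants, and 3 fed and 7 starved ones from long-term descendants, which the submitters call biological replicates. All groups share the N2 genotype and parents and grandparents that were kept well fed. Fed larvae were washed 3-4X and starved larvae 0-1X before freezing, so food, hours in culture and washing cannot be told apart.

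C. elegans builds its own branched-chain fatty acids from leucine. The branched-chain ketoacid dehydrogenase complex turns leucine into a short branched primer, fatty acid synthesis lengthens it, and the elongases ELO-5 and ELO-6 finish the chains that end in an iso branch. ACS-1 is an acyl-CoA synthetase that activates such fatty acids, and LET-767 is a ketoacyl reductase of fatty acid elongation. The products are built into sphingolipids, and larvae that lack them stay arrested at the L1 stage even with food.

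Libraries of batch 1 (24, holding all fed libraries) had 20950821 to 30313127 gene counts and those of batch 2 (15, all starved) had 8836723 to 13740490. The lowest count of a detected member in any library was 43. Levels below are CPM, read counts scaled to library size with the TMM correction for library composition. All batch 1 libraries of long-term descendants (3 fed, 3 starved) came from lane 4, so lane and ancestry were not separated there. All 4 fed libraries of short-term descendants came from lane 5. In fed larvae, long-term against short-term ancestry and lane therefore cannot be told apart. Several starved libraries stood apart. LC4_49d, labelled starved and from the long-term descendants, had fed-like levels of elo-5 and acs-1. LC6 and 14 of the control descendants (batches 1 and 2) and 14 of the short-term descendants (batch 2) had very little elo-5 and elo-6. Starved LC14 of the short-term descendants had a TMM factor of 1.96 against 0.767 to 1.16 in the other starved libraries. In it 12.6% of reads fell outside genes, against 1.75% to 4.74% elsewhere. Fits below without the libraries that stood apart leave out the other 4 and keep LC14. In fed against starved fits, which use batch 1, those left out are LC4_49d and LC6 of the control descendants. The 8 intestinal marker genes were all counted in every group, with a summed level of 977.5 to 4172 CPM. The 6 yolk genes of adults summed to 2.21 to 46.6 CPM. Of the 4 muscle markers, hlh-1 was listed at 0 in all 39 libraries.

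let-767 was listed at 0 in all 39 libraries. A count of 0 allows up to 3 counts, or 0.0732 to 0.318 TMM-scaled CPM across libraries, as far as counting error goes. Of 19271 protein-coding features, 93 were at 0 in every library, among them hlh-1, a transcription factor known in body wall muscle. The zeros of let-767 are therefore given as listed values and not as absence of its mRNA, and their source was not tested. Reads assigned to no single gene made up 2.695% to 4.201% of each library. C56G2.7, a neighbouring gene by sequence name, held 547 to 4225 counts. In the WBcel235 annotation no other gene overlaps let-767, while the annotation used for the counts is not given. No fold change is given for let-767, which leaves 3 genes tested.

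elo-6 was the most abundant of the 3 detected genes. On the scale of CPM per kilobase of exon, the levels ran elo-6, then elo-5, then acs-1 in 36 of the 39 libraries. In the remaining 3, which were starved LC6 and 14 of control descendants and starved 14 of short-term descendants, acs-1 lay above elo-5. In fed control larvae the medians were 592 CPM per kilobase for elo-6, 268 for elo-5 and 79.6 for acs-1. In starved control larvae of batch 1 they were 525.8, 100.2 and 16.96.

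**Figure D1:**
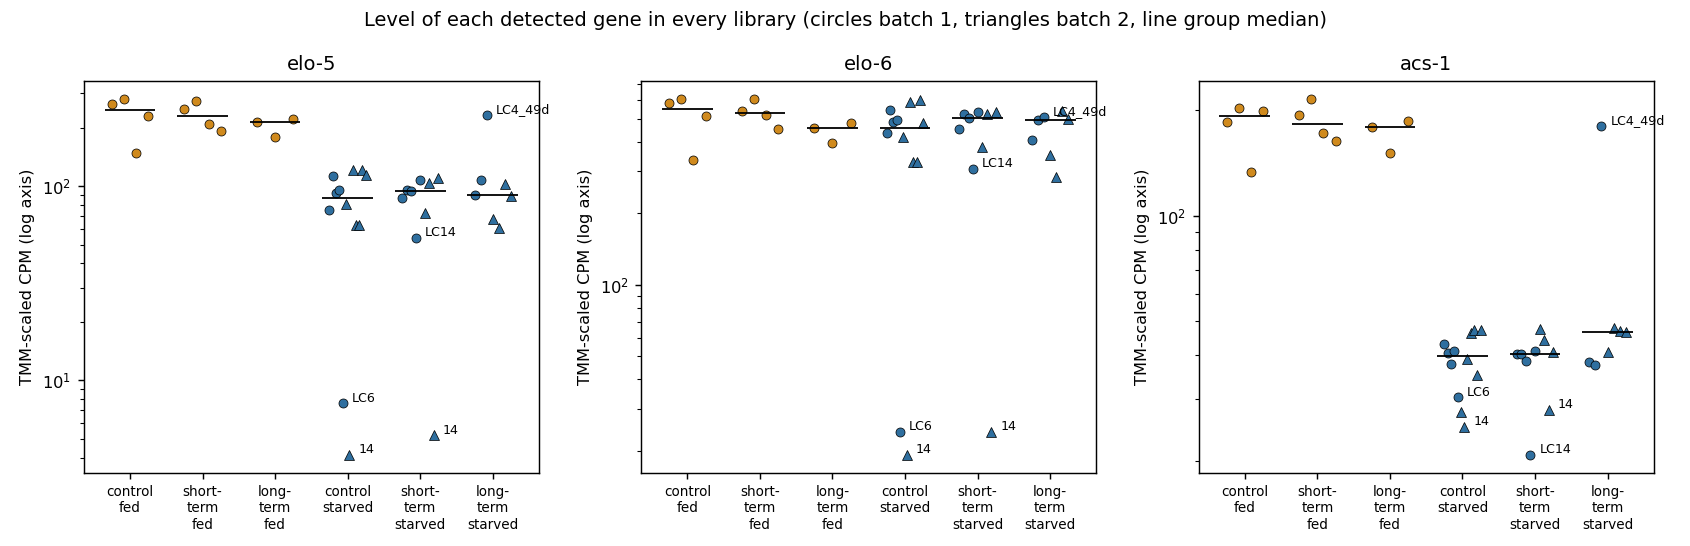
Level of elo-5, elo-6 and acs-1 in each of 39 libraries, as TMM-scaled CPM on a log axis, by ancestry and food; circles are batch 1, triangles batch 2 and lines group medians. acs-1 and elo-5 lie higher in every fed library than in every starved one except LC4_49d, while elo-6 overlaps between fed and starved larvae, and LC6 and both libraries named 14 lie lowest for elo-5 and elo-6.

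acs-1 was higher in fed larvae. In control descendants the 4 fed libraries held 133, 185, 198 and 203 CPM of acs-1. The 5 starved libraries of batch 1 held 30.4, 37.8, 40.8, 41.1 and 43.0 CPM. Every fed library was above every starved one, and the mean was 179.5 ± 32.1 CPM fed (SD, n = 4) and 38.6 ± 4.97 starved (SD, n = 5). The level in fed larvae was 4.41-fold higher, a log2 fold change of 2.14 (SE 0.31; adjusted p = 9.44e-06 in edgeR's quasi-likelihood test over 19406 genes).

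acs-1 of short-term descendants measured 163, 172, 193 and 215 CPM in the fed libraries. The starved libraries of batch 1 held 20.9, 38.7, 40.3, 40.5 and 41.2 CPM, the lowest being LC14, which had 40.9 CPM when scaled by total counts. The groups did not overlap, and the log2 fold change was 2.18 (SE 0.31; edgeR adjusted p = 1.07e-05).

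In long-term descendants acs-1 measured 151, 179 and 186 CPM in the fed libraries. The starved libraries held 37.6, 38.3 and, in the library labelled starved LC4_49d, 179 CPM. Fed and starved larvae overlapped through that library alone. LC4_49d was set apart for its own acs-1 and elo-5 levels, so the value without it is not a separate result. With it, the log2 fold change was 1.00 (SE 0.37; edgeR adjusted p = 0.0678); without it, on 2 starved libraries assumed to vary like the other groups, it was 2.14 (edgeR adjusted p = 4.96e-08).

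elo-5 was also higher with food in control and short-term descendants. The fed control libraries held 149, 230.5, 263 and 281 CPM of elo-5. The starved ones of batch 1 held 7.62 (LC6), 75.4, 92.4, 94.96 and 112.5 CPM, all below the lowest fed library. The log2 fold change was 1.53 (SE 0.42, edgeR adjusted p = 0.00403), and 1.24 without LC6 (edgeR adjusted p = 0.000176). LC6 was set apart for its own low elo-5 and elo-6, so the value without it is not a separate result.

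elo-5 of short-term descendants measured 192, 208, 249.9 and 273 CPM in fed libraries. The starved libraries of batch 1 held 53.99 (LC14), 86.6, 94.0, 95.8 and 107 CPM, again without overlap. The log2 fold change was 1.22 (SE 0.42; edgeR adjusted p = 0.0176). With total counts in place of TMM scaling it was 0.87 and no longer past the threshold (edgeR adjusted p = 0.0704).

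In long-term descendants elo-5 measured 179.6, 213 and 222 CPM in fed libraries. The starved libraries held 89.8, 108 and, in LC4_49d, 232 CPM, which was above all 3 fed libraries. The log2 fold change of 0.49 (SE 0.51) did not pass the threshold (edgeR adjusted p = 0.503). It was 1.00 (SE 0.24, edgeR adjusted p = 0.00138) without LC4_49d and LC6 of the control descendants, and 1.01 (edgeR adjusted p = 0.176) without LC4_49d alone. Both libraries were set apart by levels that include elo-5 itself, so these values are not a separate result.

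elo-6, which lies near elo-5 on chromosome IV on the same strand with 9511 bp between them in the WBcel235 annotation, did not pass the test in any ancestry. Fed control libraries held 336, 513, 582 and 607 CPM of elo-6. Starved control libraries of batch 1 held 24.0 (LC6), 434, 487, 494.5 and 545 CPM, so that 4 of the 5 lay within the range of the fed libraries. The log2 fold change was 0.30 (SE 0.44; edgeR adjusted p = 0.566) with a 95% interval of -0.60 to 1.21. Without LC6 it was -0.001, and it also fell below 0 (-0.04) with total counts.

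elo-6 of short-term descendants measured 451, 519.5, 540.2 and 603 CPM fed. The starved libraries held 307 (LC14), 454, 503, 525 and 532 CPM, and the ranges overlapped. The log2 fold change was 0.004 (95% interval -0.90 to 0.91; edgeR adjusted p = 0.994). In long-term descendants the fed libraries held 395, 457.5 and 480.2 CPM and the starved ones 405, 496 and 509 CPM, with a log2 fold change of -0.12 (95% interval -1.22 to 0.99; edgeR adjusted p = 0.889).

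**Figure D2:**
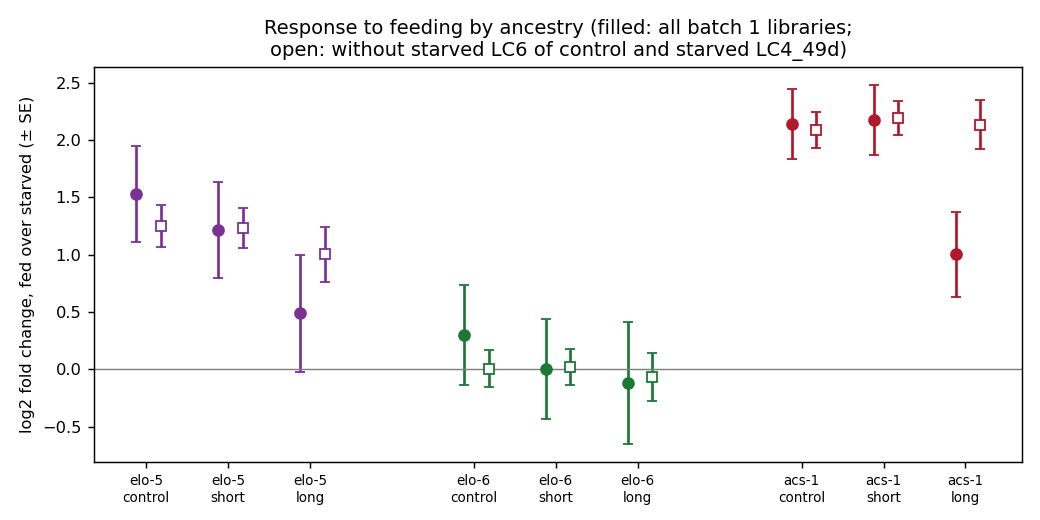
Log2 fold change of fed over starved larvae (vertical axis, ± SE) for each gene and ancestry in batch 1, from edgeR; filled points use all 24 libraries and open squares leave out starved LC6 of control and starved LC4_49d of long-term descendants. The acs-1 value of long-term descendants moves from 1.00 to 2.14 (edgeR adjusted p 0.0678 to 1.7e-08) and that of elo-6 stays within 1 SE of 0. The libraries left out were set apart for their own levels of these genes, so the open squares are not a separate result.

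Counted against all genes tested, 2 of the 3 detected genes were called in control descendants, where 53.7% of the 19406 genes tested were called (28.7% higher and 25% lower in fed larvae). It was 2 of 3 in short-term descendants, where 58.3% of genes were called (28% higher and 30.2% lower). It was 0 of 3 in long-term descendants, where 12.1% were called (5.81% higher and 6.33% lower); acs-1 alone had an unadjusted p under 0.05 there (0.0125), and DESeq2 called 1. The counts of 2 were thus near the background, and it is the size of the changes and not their number that is described. Over all genes tested, the log2 fold change had a median of -0.15 in control, -0.28 in short-term and -0.09 in long-term descendants. With total counts it was -0.41, -0.68 and -0.32, and the split of higher to lower calls in control descendants moved from 5571:4845 to 4287:6169. That split moved from 5434:5870 to 3656:9343 in short-term and from 1128:1228 to 882:2546 in long-term descendants. acs-1 kept a log2 fold change of 1.86 and 1.84 in control and short-term descendants on that scale.

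The ratio of elo-5 to elo-6 within a library does not depend on the scaling. Per kilobase of exon it was 0.444 to 0.466 in fed control larvae, 0.402 to 0.465 in fed short-term descendants and 0.456 to 0.467 in fed long-term descendants. In the starved libraries of batch 1 the median ratio was 0.193, 0.188 and 0.223 in the same order. In batch 2, which holds no fed larvae, it was 0.203, 0.203 and 0.192. Starved and fed ratios overlapped only through LC4_49d, at 0.457. Starved LC6 of the control descendants, at 0.319, lay between the fed ratios and the other starved ones, which were 0.175 to 0.240. The ratio shows that elo-5 and elo-6 differed unequally between fed and starved larvae, and does not show that either stayed at one level.

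**Figure D3:**
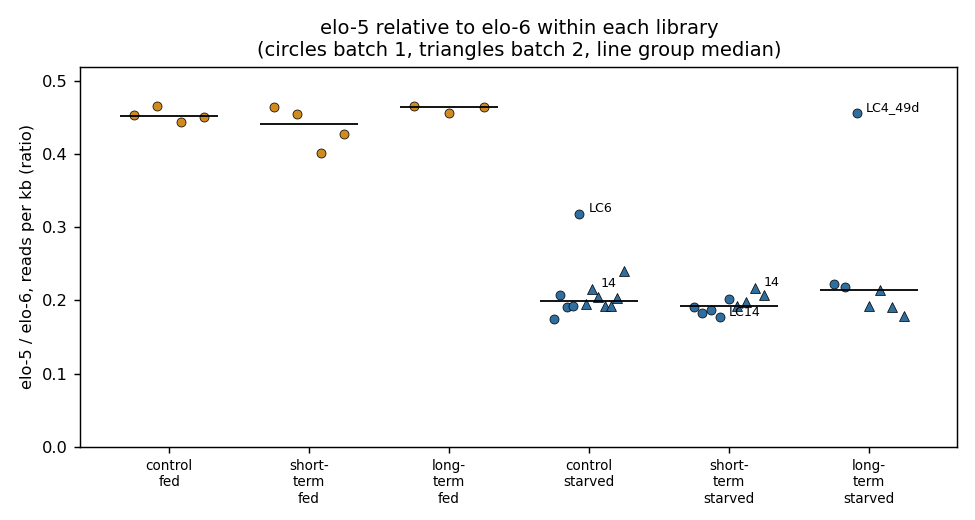
Ratio of elo-5 to elo-6 reads per kilobase of exon (vertical axis, from 0) in each library by ancestry and food; circles are batch 1, triangles batch 2 and lines group medians. All 11 fed libraries lie at 0.402 or above, and the starved libraries lie at 0.319 or below except LC4_49d at 0.457.

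In bulk larvae, fewer cells of a type and less RNA per cell cannot be told apart. The summed level of the 8 intestinal markers was 2770 to 4172 CPM in fed and 1821 to 3522 CPM in starved control libraries of batch 1. Of these markers 4 were called higher and 2 lower in fed control larvae, led by act-5, the actin of the intestinal brush border (log2 fold change 2.17, edgeR adjusted p = 7.4e-06), and pept-1, a peptide transporter (1.60, edgeR adjusted p = 1.08e-05). Germ line markers rose in 3 of 4 (pgl-1, pgl-3 and glh-1), with summed levels of 98.2 to 120.4 CPM fed and 43.7 to 51.6 starved. Muscle markers fell in 1 of the 3 tested (unc-54) and neuron markers in 1 of 4 (ric-4). The muscle count was 0 without starved LC6, fed LC11 or fed LC14 of the control descendants, and with the replicate block. The 3 yolk genes tested had edgeR adjusted p-values of 0.0972 to 0.957 in control descendants. In short-term descendants 2 of these 3 fell in fed larvae, vit-2 with a log2 fold change of -3.204 (edgeR adjusted p = 0.00231) and vit-6 with one of -2.07 (edgeR adjusted p = 0.00494). Without starved LC14, whose 6 yolk genes summed to 46.6 CPM, 1 was called lower and 1 higher. Muscle markers fell in 2 of 3 there (unc-54 and myo-3), and the count was 0 with the replicate block and 0 or 1 without any 1 of the short-term libraries other than starved LC14. Intestinal markers were called higher in 4 and lower in 2 there (1 lower without any 1 of fed LC11, LC12 and LC13 or starved LC12, LC13 and LC6), germ line markers higher in 3 and neuron markers in 0. In control descendants pgl-3 no longer passed with total counts (edgeR adjusted p = 0.0602). The part of these shifts in the levels of elo-5 and acs-1 was not tested.

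Most genes that supply the branched primer were higher in fed larvae. In control descendants 4 of 5 were called higher in fed larvae and 0 lower, with a list median of 1.26 on the log2 scale against -0.15 for all genes. They were bckd-1A and bckd-1B, subunits of the dehydrogenase (1.32 and 1.26), dbt-1, its acyltransferase (1.34), and bcat-1, the transaminase that acts on leucine before it (0.51, edgeR adjusted p = 0.0457, but 0.0668 with total counts). dld-1, the subunit shared with other dehydrogenases, had a log2 fold change of -0.15 (edgeR adjusted p = 0.444). dbt-1 measured 193 ± 31.5 CPM in fed (SD, n = 4) and 72.1 ± 5.56 CPM in starved control larvae (SD, n = 5). The count was again 4 of 5 in short-term descendants. It was 2 in long-term descendants, and 4 without the libraries that stood apart.

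The enzymes that lengthen fatty acids moved in both directions. fasn-1, the fatty acid synthase, rose from 384 ± 130 CPM starved (SD, n = 5) to 1794 ± 202 fed (SD, n = 4) in control descendants, a log2 fold change of 2.17 (edgeR adjusted p = 1.42e-05). art-1, a trans-enoyl reductase of elongation, rose by 1.07 on that scale (edgeR adjusted p = 0.000145). pod-2, the acetyl-CoA carboxylase that makes the building block for fasn-1, fell by 1.03 (edgeR adjusted p = 0.0162), and hpo-8, a dehydratase of elongation, measured 0.10 (edgeR adjusted p = 0.642). The counts were 2 higher and 1 lower of 4 in control as well as short-term descendants. In long-term descendants edgeR called 0 (2 had an unadjusted p under 0.05, and DESeq2 called 1), and 2 higher and 1 lower without the libraries that stood apart.

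Among the 7 other elongases of the ELO family, 4 were higher and 1 lower in fed control larvae. elo-4 had a log2 fold change of 3.85 (edgeR adjusted p = 7.43e-06) at 14.8 ± 1.72 CPM fed (SD, n = 4) and 0.968 ± 0.207 starved (SD, n = 5). elo-2, which lengthens straight chains, rose by 1.57, elo-9 by 1.45 and elo-3 by 1.38 (edgeR adjusted p at most 0.000135). elo-8 fell by 0.48 (edgeR adjusted p = 0.0437), while elo-1 measured 0.47 (edgeR adjusted p = 0.0589). Short-term descendants had 5 higher and 2 lower. Of the lower ones, elo-7 was near the floor and uneven, at 0.875 ± 0.949 CPM in starved short-term libraries of batch 1 (SD, n = 5). In long-term descendants edgeR called 0 (3 had an unadjusted p under 0.05, and DESeq2 called 1), or 4 higher and 0 lower without the libraries that stood apart. Of the 4 stdh genes, relatives of let-767, 2 were lower in fed control larvae: stdh-1 by 0.52 and stdh-4, which was below 1 CPM, by 2.03 on the log2 scale. The same count held in short-term descendants, and in long-term descendants neither edgeR nor DESeq2 called any of the 4 (0 had an unadjusted p under 0.05). Without the libraries that stood apart edgeR called 1 lower there.

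Genes of sphingolipid synthesis, which uses the branched lipids, were higher in fed control larvae in 8 of 9 cases and lower in 0, with a list median of 1.33. sptl-2, a subunit of serine palmitoyltransferase, measured 110.5 ± 12.1 CPM fed (SD, n = 4) and 25.6 ± 5.75 starved (SD, n = 5), a log2 fold change of 2.04 (edgeR adjusted p = 6.49e-06). The ceramide synthases hyl-1, hyl-2 and lagr-1 rose by 1.59, 1.43 and 1.33. Of the glucosyltransferases that make glucosylceramide, cgt-3 rose by 0.55 and cgt-2 by 0.54 (edgeR adjusted p = 0.111 with total counts), while cgt-1 measured 0.15 (edgeR adjusted p = 0.452). Of the 9, 8 were higher in short-term descendants, among them cgt-2, whose value flipped from 0.34 to -0.045 with total counts. In long-term descendants edgeR called 0 of 9 (4 had an unadjusted p under 0.05, and DESeq2 called 2), and 7 without the libraries that stood apart.

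The other acyl-CoA synthetases split evenly: of 21 listed and 20 tested, 7 were higher and 7 lower in fed control larvae. acs-20 rose by 2.65 (edgeR adjusted p = 8.46e-06). acs-2, a mitochondrial enzyme of fat breakdown, fell by 5.69 (edgeR adjusted p = 0.000352), from 1038 ± 578 CPM starved (SD, n = 5) to 20.9 ± 1.02 fed (SD, n = 4). The counts were 7 higher and 9 lower in short-term and 0 and 3 in long-term descendants. Of the 9, acs-10, acs-15 and acs-18 were near the floor and uneven. They measured 2.34 ± 2.78, 1.77 ± 2.71 and 0.899 ± 1.60 CPM in starved short-term libraries of batch 1 (SD, n = 5). In long-term descendants 10 had an unadjusted p under 0.05, DESeq2 called 4 higher and 4 lower, and edgeR called 7 and 4 without the libraries that stood apart. Among 11 regulators, 4 were higher and 3 lower in fed control larvae. The 4 were nprl-2, nprl-3, raga-1 and ragc-1, which encode parts of the amino acid branch of TOR signalling (0.97, 0.46, 0.59 and 1.11; nprl-3 had an edgeR adjusted p of 0.217 with total counts). The lower ones were sbp-1, a sterol regulatory element binding protein (-0.71), mdt-15, its Mediator partner (-0.73), and tat-2, a lipid flippase (-0.53, edgeR adjusted p = 0.0184). Short-term descendants had 3 higher and 2 lower. In long-term descendants edgeR called 0 of the 11 (5 had an unadjusted p under 0.05, and DESeq2 called 1 higher and 1 lower), or 4 higher and 2 lower without the libraries that stood apart.

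**Figure D4:**
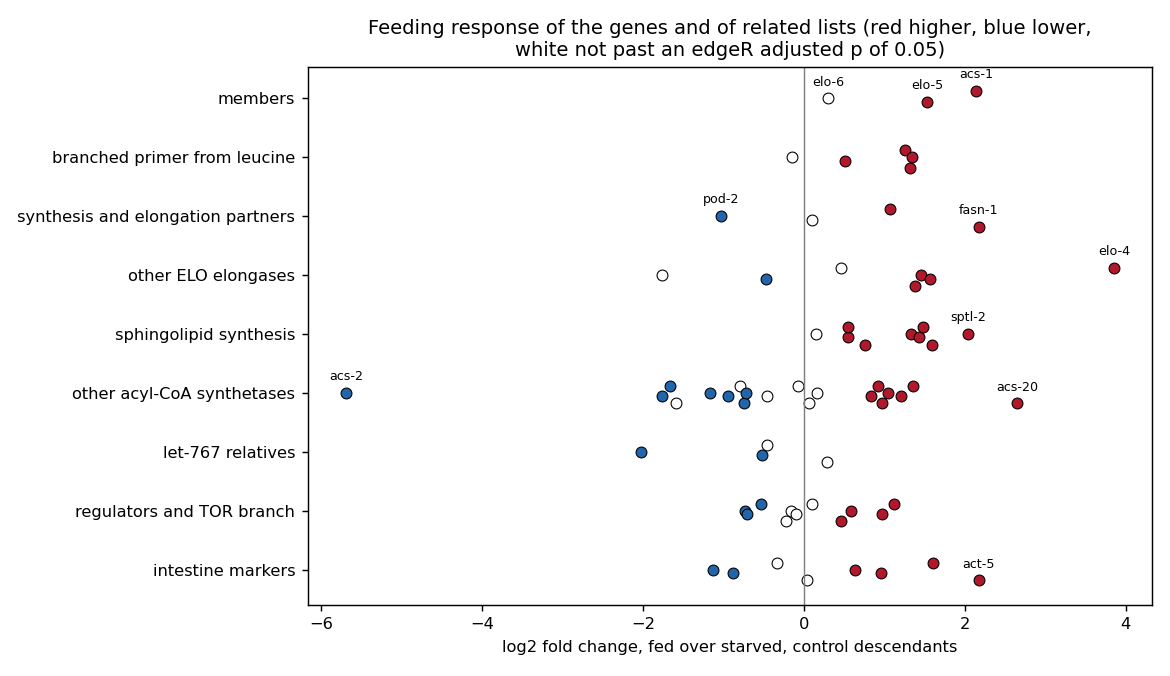
Log2 fold change of fed over starved control descendants (horizontal axis, 4 fed and 5 starved libraries of batch 1) for the detected genes and 8 related lists; each point is a gene, red if called higher, blue if lower and white if neither at an edgeR adjusted p of 0.05. The primer and sphingolipid lists lie mostly above 0, and acs-2 lies farthest below it at -5.69.

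Ancestry was compared within fed larvae first. No member was called in any of the 3 comparisons in edgeR, which called 0% of 16132 genes in each (411 to 826 genes had an unadjusted p under 0.05, and DESeq2 called 14 to 23). None of the 3 genes had an unadjusted p under 0.05 in them, and DESeq2 called 0 of the 3. The log2 fold changes ran from -0.22 (elo-6, long-term against short-term descendants, 95% interval -0.54 to 0.11) to 0.02 (elo-6, short-term against control). For acs-1 in long-term against control descendants the value was -0.07 (95% interval -0.33 to 0.20). Long-term against short-term descendants was also lane 4 against lane 5 in these fed libraries.

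Within starved larvae, both batches were fitted with batch as a term. edgeR called 0% of 15980 genes in each of the 3 comparisons and none of the 3 members (at most 2079 genes had an unadjusted p under 0.05). DESeq2 called 0 to 4 genes and no member. In long-term against control descendants acs-1 had a log2 fold change of 0.62 (SE 0.21; unadjusted p = 0.0071, edgeR adjusted p = 0.275). It was 1.03 in batch 1 alone and 0.27 in batch 2 alone, and 0.16 without the library labelled starved LC4_49d. acs-1 of starved long-term descendants ranged from 37.6 to 179 CPM with a median of 46.5 (n = 7), and that of starved control descendants from 25.1 to 47.4 CPM with a median of 39.9 (n = 12). The groups overlapped in all but LC4_49d and 1 library of batch 2. Against short-term descendants the value was 0.61 (unadjusted p = 0.0119, edgeR adjusted p = 0.425), with 1.08 in batch 1 alone, 0.18 in batch 2 alone and 0.12 without LC4_49d. elo-5 measured 0.35 and elo-6 0.13 in long-term against control descendants, and -0.11 and -0.12 without the 4 libraries that stood apart. In batch 1 alone they measured 0.82 and 0.19, and in batch 2 alone 0.00 and 0.11. With the replicate block, in which this comparison rests on the 3 batch 2 numbers that both groups share, elo-5 measured -0.15, elo-6 0.02 and acs-1 0.08. In short-term against control descendants the values were 0.03, 0.11 and 0.01 for elo-5, elo-6 and acs-1. In batch 1 alone they were 0.24, 0.27 and -0.045, and in batch 2 alone -0.14, -0.10 and 0.09.

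The response to food itself was compared between ancestries as an interaction. edgeR called 0% of 19406 genes and no member (439 and 1738 genes had an unadjusted p under 0.05), and DESeq2 called 0 and 34 genes and no member. The acs-1 response in long-term descendants differed from that in control descendants by -1.14 on the log2 scale (SE 0.47; unadjusted p = 0.025, edgeR adjusted p = 0.511), and the difference was -0.02 without LC4_49d. For elo-5 it was -1.04 (95% interval -2.41 to 0.33) and -0.54 without LC4_49d. In short-term descendants the differences from control were -0.31, -0.30 and 0.04 for elo-5, elo-6 and acs-1, with 95% intervals that all crossed 0.

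The 3 starved libraries low in elo-5 and elo-6 shared a pattern. Both libraries named 14 share a replicate number, and their deviations from group means correlated at 0.836, so the 3 may not be separate cases. elo-5 stood at 7.62 CPM in LC6 of control descendants (177 counts), at 4.14 in 14 of control descendants (43 counts) and at 5.203 in 14 of short-term descendants (56 counts). The 11 other starved libraries of batch 1 held 53.99 to 112.5 CPM and the 13 of batch 2 held 60.8 to 121.5, LC4_49d left out. elo-6 stood at 24.0, 19.2 and 24.1 CPM in those 3, against 307 to 545 and 285 to 601. Both genes were below the whole range of the other libraries in each. The 3 were set apart for these low values and left out of the range, so this is not a separate result. Against the medians of their batches, elo-5 differed by -3.61, -4.40 and -4.08 on the log2 scale, and elo-6 by -4.36, -4.63 and -4.31. acs-1, at 30.4, 25.1 and 28.1 CPM, differed by -0.41, -0.88 and -0.72, and was below the whole range only in 14 of the control descendants. The lowest value of the batch 1 range, 20.9 CPM, was that of starved LC14, which had a TMM factor of 1.96. Scaled by total counts, acs-1 stood at 28.8 CPM in LC6 and 40.9 in LC14. On that scale LC6 lay below every other starved library of batch 1, the lowest of which held 36.2 CPM.

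Some genes of the related lists, not all of branched-chain synthesis, were low in the same 3 libraries. pod-2 stood at 576, 494 and 419 CPM against ranges of 806 to 2998 in batch 1 and 1262 to 2655 in batch 2. acs-2 stood at 5.51, 3.08 and 6.41 CPM against 815 to 1905 and 324 to 1702. elo-2, elo-9, fasn-1, art-1, sptl-2, sptl-3, acs-11 and acs-19 were also below the range in all 3. bcat-1 lay above the range in all 3 (444, 447.5 and 422 CPM against at most 321 and 338). Of 8706 genes averaging at least 10 CPM, 43.25%, 25.2% and 15.2% lay above the range. Among the 4 synthesis and elongation partners 3, 4 and 4 were below the range, where 9.03%, 20.8% and 26.1% of the 8706 genes were. The other elongases had 5, 3 and 3 of 7 below it, the sphingolipid genes 2, 7 and 7 of 9 and the primer genes 0, 1 and 2 of 5. Starved LC14, with a TMM factor of 1.96, was kept in the batch 1 range and held its lowest elo-5, elo-6 and acs-1. Its part in the below-range counts of LC6 was not tested, so these are not set against the counts of batch 2. The summed level of the muscle markers was 15340, 12400 and 9562 CPM in these libraries, against group medians of 6946 to 8862 among starved libraries, and that of the intestinal markers 3522, 3141 and 2712 CPM against 1978 to 2285. Of the 8 intestinal markers, 1, 4 and 4 lay below the range of the other starved libraries, and 3, 3 and 2 above it. The part of these marker levels in the low values was not tested.

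The pattern of LC4_49d, labelled starved, was another. It held 232 CPM of elo-5, 509 of elo-6 and 179 of acs-1, which for acs-1 and elo-5 was above the whole range of the other starved libraries of batch 1. LC4_49d was set apart for these levels of acs-1 and elo-5, so this is not a separate result. Of the 5 primer genes, 4 lay above the range of those libraries too, and dld-1, at 417 CPM, lay within it. So did 5 of 7 other elongases and 8 of 9 sphingolipid genes lie above it, where 57.4% of 8706 genes did. acs-2 was at 18.0 CPM and pod-2 at 801, near their levels in fed control larvae (20.9 ± 1.02 and 953 ± 128 CPM; SD, n = 4).

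**Figure D5:**
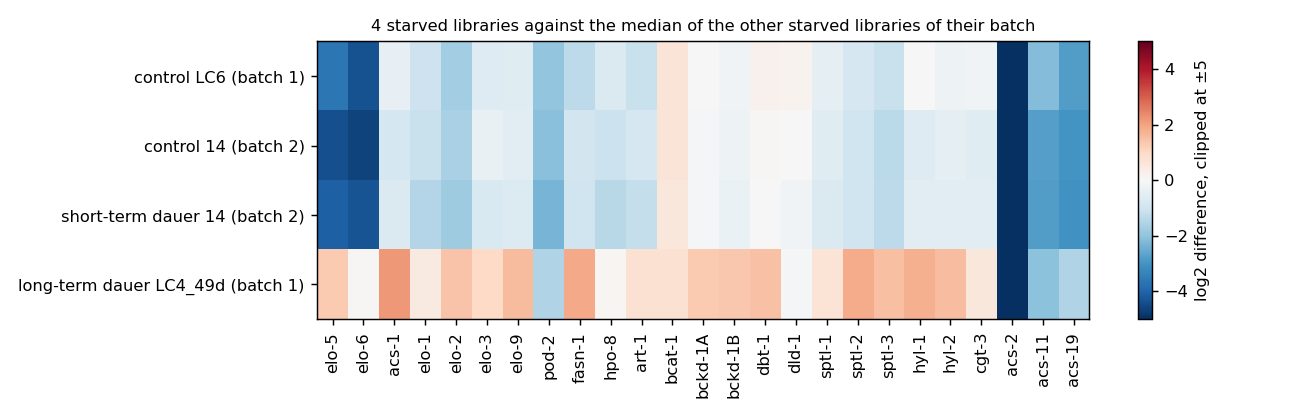
Log2 difference (colour, clipped at ±5) of 4 starved libraries from the median of the other starved libraries of their batch, for the detected genes and related genes. elo-5, elo-6 and acs-2 are low in LC6 and both libraries named 14, and in LC4_49d acs-1 and elo-5 are high while acs-2 is low.

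The genes with levels most like each member over the 24 batch 1 libraries were sought among 8772 genes with a mean of at least 10 CPM, by the root-mean-square difference of mean-centred log2 CPM. For elo-5 they were hphd-1, an enzyme of propionate breakdown (0.26), idh-1, an isocitrate dehydrogenase (0.31), and R193.2 (0.33). For elo-6 they were K08D8.3 (0.18), metr-1, the methionine synthase (0.20), and mthf-1, the methylenetetrahydrofolate reductase (0.23). For acs-1 they were slc-30A5, a zinc transporter (0.09), nra-2 (0.10) and phb-1, a prohibitin of mitochondria (0.11). Among the members, elo-6 ranked 103 and acs-1 817 for elo-5. elo-5 ranked 37 and acs-1 7571 for elo-6, and elo-5 ranked 2429 and elo-6 6232 for acs-1. These are descriptions over libraries that share batch, lanes and the fed and starved split. elo-6 stood at 24.0 CPM in starved LC6 of control descendants and at 307 to 607 CPM in the other batch 1 libraries. Its likeness to other genes, and the ranks with it, thus rest largely on that library.

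The genes most like elo-6 and elo-5 were also low in the 3 libraries low in those members. The genes most like each member were chosen over batch 1 libraries that include LC6 and LC4_49d. Their values in those libraries therefore follow in part from the choice. Of the low libraries, only those named 14, of batch 2, lay outside it. metr-1 stood at 22.7 CPM in LC6 of control descendants, 12.9 in 14 of control descendants and 14.8 in 14 of short-term descendants, against 260.1 to 656 CPM in the other starved libraries of batch 1 and 106 to 517 in those of batch 2. hphd-1 stood at 45.3, 39.9 and 45.0 CPM against 142 to 306 and 109 to 247. In LC4_49d, slc-30A5 stood at 160.2 CPM, against 18.1 to 35.6 in the other starved libraries of batch 1. The genes most like elo-5 were above that range there too, hphd-1 at 587.5 CPM against at most 306 and idh-1 at 920.5 CPM against at most 503.

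The library kit does not keep the strand, so reads from opposite-strand neighbours cannot be told apart where exons overlap. In the WBcel235 annotation elo-5 shares 162 exon bases with F41H10.3 on the other strand, which measured 48.2 to 113 CPM. acs-1 shares 19 with hpo-26, at 9.07 to 19.5 CPM. elo-6 shares no exon bases with a protein-coding gene, and no other gene overlaps let-767.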

How the data were processed

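The authors deposited whole-number read counts per gene, 1 table per library, from polyA RNA of libraries made with a non-directional kit, per the labels' protocols. The submitters' processing notes name Bowtie 1.1.2, HTSeq and edgeR. Genome build, annotation and counting options are not given in the sources used here, so no coordinates are printed. Feature names were matched to the Ensembl 115 annotation of WBcel235 for symbols and exon lengths (44443 of 44968 matched; the 525 others held at most 0.575% of counts). Summary lines were left out of library sizes; unaligned reads were 14.4% to 18.995%.

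The tests used edgeR 4.0.16 (R 4.3.3; filterByExpr, TMM, robust dispersions, glmQLFit, glmQLFTest), with Benjamini-Hochberg adjustment over all genes tested and a threshold of 0.05. Food was tested in the 24 batch 1 libraries, ancestry in 28 starved libraries with batch as a term and in 11 fed libraries. Standard errors come from the quasi-likelihood F statistic. The procedure was tested on simulated counts. Alternatives were another scaling, no filter, DESeq2 1.42.0, each library left out, a replicate block and single batches, and, added after the data were seen, total counts and leaving out 4 starved libraries that stood apart. No 2 libraries of a group agreed within sampling noise (chi-square per degree of freedom at least 4.03 over 138 pairs). Starved control and long-term libraries of batch 2 that share a replicate number deviated together in all 3 pairs (correlations 0.150 to 0.413); the labels do not say what the number marks. The members and lists were chosen with earlier results of these data known. Members were named throughout, list genes where they passed the threshold, and the 3 genes most like each member by the measure given there; other genes were named after their values were seen. Promoter motifs listed for a search were not searched, since no sequence was used here.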

Additional observations from a re-analysis of the deposited data

Results flagged for a closer look

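In groups of 4 to 10 libraries, single libraries lay farther from the rest than Dixon's 95% criterion allows in 8 of 21 tests, where chance gives about 1.05. The values are log2 CPM. Starved LC6 of the control descendants (batch 1) stood low for elo-5 at 2.95 and for elo-6 at 4.59. Starved 14 of the control descendants (batch 2) stood low for elo-5 at 2.08 and for elo-6 at 4.27. Starved 14 of the short-term descendants (batch 2) stood low for elo-5 at 2.41 and for elo-6 at 4.60. Starved LC14 of the short-term descendants (batch 1) stood low for elo-6 at 8.26 and for acs-1 at 4.39. Scaled by total counts, LC14 held 600.2 CPM of elo-6 and 40.9 CPM of acs-1, the first above and the second still below the other 4 starved libraries of its group and batch. The library labelled starved LC4_49d could not be tested in this way, since its group holds 3 libraries in batch 1.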

How the results depend on the processing

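Of 912 alternative values of a member's log2 fold change, 842 kept direction and side of the threshold, 5 newly passed it, 1 no longer did and 64 changed sign, none of these with a called value on either side; the cause of these changes was not tested. The count of members called in long-term descendants, fed against starved, was 1 in place of 0 with DESeq2, with the replicate block and without LC4_49d, and 2 without the libraries that stood apart; leaving out 1 library gave 0 to 1. In short-term descendants it was 1 in place of 2 with total counts. By their deviations from group means, 3 of 11 fed and starved pairs of 1 culture name and 0 of 3 fed pairs of 1 number correlated above 0.1. Of the starved pairs of 1 number, 7 of 10 did: 4 of 7 control and short-term pairs and all 3 control and long-term pairs. The highest were both libraries named 14 (0.836) and both named 16 (0.640). The main fits did not pair libraries, so deviations shared within starved pairs were not modelled in them. Within starved larvae the replicate block used the number and so modelled them. In the fed against starved fits it used ancestry and culture name together, which does not model deviations shared between ancestries. Of the 11 fed libraries, 4 correlated best with the starved library of their own name. With the replicate block, acs-1 in long-term descendants had a log2 fold change of 1.42 (edgeR adjusted p = 0.0163), and the members called numbered 2, 2 and 1. It changed no other call of a member. The block could be fitted among fed larvae for short-term against control descendants alone.

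Sign changes in fed against starved larvae concerned elo-6: in short-term descendants -0.034 with relative log expression factors, -0.032 with DESeq2 and -0.35 with total counts, and in control descendants -0.027 with the block and -0.035 with total counts. In the response of short-term against control descendants, elo-5 was 0.10 and elo-6 0.11 with the block, acs-1 -0.023 with total counts and elo-6 0.01 without the libraries that stood apart; acs-1 of long-term against control was 0.045 without them. Among starved larvae, acs-1 of short-term against control was -0.008 without a filter, -0.001 with DESeq2 and -0.045 in batch 1 alone. elo-5 there was -0.016 without the libraries that stood apart and -0.14 in batch 2 alone, and elo-6 -0.10 in batch 2 alone. In starved long-term against control descendants, elo-5 was -0.15 with the block and -0.11 without the libraries that stood apart, and elo-6 -0.12 without them. Against short-term descendants, elo-5, elo-6 and acs-1 were -0.55, -0.45 and -0.065 with the block. No starved long-term library shares a number with a short-term one, so those block values are indirect, through control libraries. In the same comparison elo-6 was -0.10 with total counts, -0.088 in batch 1 alone and -0.15 without the libraries that stood apart. elo-5 was -0.09 there without those libraries. In fed short-term against control descendants, elo-5 was 0.10 with the block and acs-1 -0.004 with total counts.

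Leaving out 1 library gave ranges that crossed 0 for elo-6 in fed against starved control (-0.001 to 0.45) and short-term descendants (-0.092 to 0.12). In the response of short-term against control, acs-1 ran from -0.083 to 0.11 and elo-6 from -0.45 to 0.006. In starved short-term against control, the ranges were -0.12 to 0.21 for elo-5, -0.04 to 0.29 for elo-6 and -0.054 to 0.055 for acs-1, and in fed larvae -0.18 to 0.051, -0.12 to 0.091 and -0.092 to 0.061. elo-6 of starved larvae, long-term against short-term, ran from -0.16 to 0.11.

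Over all genes, 2356 calls in long-term descendants became 4289 with DESeq2, 4873 with the block and 8416 without the libraries that stood apart. Where edgeR called 0 genes, DESeq2 called 0 and 34 for the 2 response differences, 0, 1 and 4 among starved and 23, 14 and 14 among fed larvae. Of 121 list calls, 1 changed sign with total counts. The lowest count of elo-5, elo-6 or acs-1 was 43; whether depth limited their calls was not tested. Long-term descendants had 3 fed libraries, and let-767 had no value to test.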

Other observations

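In the 3 starved libraries low in elo-5 and elo-6, 4 other acyl-CoA synthetases lay above the range of the other starved libraries of their batch; they were picked out after their values were seen, and no test was made. acs-22 stood at 165, 165.2 and 182 CPM in LC6 and 14 of control descendants and 14 of short-term descendants, against at most 109.7 CPM in the other starved libraries of batch 1 and 135 in those of batch 2. acs-12 stood at 58.5, 57.8 and 44.1 CPM against at most 29.0 and 39.2. acs-16 stood at 33.7, 29.7 and 26.4 CPM against at most 25.3 and 24.4, and acs-3 at 12.65, 12.8 and 18.9 CPM against at most 8.895 and 10.9. Of the 21 other acyl-CoA synthetases, 38.1%, 23.8% and 23.8% lay above the range in the 3 libraries, where 43.25%, 25.2% and 15.2% of 8706 genes did. The fed control libraries measured 119.3 ± 7.32 CPM for acs-22, 20.65 ± 2.01 for acs-12, 29.0 ± 0.893 for acs-16 and 18.9 ± 1.42 for acs-3 (SD, n = 4). The 3 libraries lay above the fed mean for acs-22 and acs-12 and not above it for acs-3; for acs-16, 14 of short-term descendants lay below it.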
